A study of Mus musculus with 128 samples.

Results

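The Ts1Cje mouse is a segmental trisomy model of Down syndrome, and its adult hippocampus was compared between trisomic and euploid animals. All arrays labelled as Ts1Cje hippocampus were taken, which gave 12 of the 128 arrays of the series and 10 of its 65 animals. The trisomic group held 5 males of 6 to 7 months that carried the Ts1Cje chromosome, and the euploid group held 5 males of the same age and cross without it. Both groups came from Ts1Cje males mated to C57 females. The labels name C57Bl/6J dams, the methods also allow C57BL/6N dams, and no animal had a treatment. Euploid animal Eup324 was hybridized on 3 arrays (an original, a repeated and a Restained one), whose mean stood for that animal, so that each group counted 5 animals. The wider study set Ts1Cje beside the Ts65Dn and Dp(16)1/Yey (Dp16) models, in embryonic forebrain and in adult cortex, hippocampus and cerebellum. Nothing in the labels says whether the tissue of an animal was extracted or hybridized in batches.

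Mouse chromosome 16 (MMU16) ends in a long stretch of genes whose orthologs lie on human chromosome 21, and an extra copy of such genes usually raises their transcripts in rough proportion to dose. In Ts1Cje mice the extra stretch is carried on the end of chromosome 12 (MMU12) through a translocation, so the model also lacks 1 copy of 7 genes near the end of MMU12, and its additional Sod1 copy is not functional. The stretch includes receptor subunits for interferons, the kinase Dyrk1a, the calcineurin inhibitor Rcan1, the adhesion molecule Dscam and the potassium channel subunit Kcnj6, all of which are expressed in hippocampal neurons or glia. The hippocampus, which holds the dentate gyrus and the pyramidal cell fields, is needed for spatial and contextual memory. All values below are log2 signals of 1 probe set per gene, and a difference of 1 is a doubling of signal. In pieces of whole tissue, fewer cells of a type and less RNA per cell cannot be told apart.

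Array medians lay between 6.56 and 6.74 on the log2 scale, and the arrays of euploid animal Eup324 held both ends. Its original, Restained and repeated arrays had medians of 6.74, 6.73 and 6.56, against 6.64 to 6.66 in the other animals. The repeated array of euploid animal Eup324 stood apart: its differences to the arrays of other animals had a median SD of 0.322, against 0.178 to 0.215 for the other 11 arrays. Its SD was 0.297 to the original array of the same animal and 0.329 to the Restained one, whereas those 2 differed with an SD of 0.127. The main DEX counts are therefore given with and without the repeated array, and other counts include it unless stated. Without it, animal Eup324 still rests on the 2 arrays with the highest medians. The tissue label was checked on 10 markers of hippocampal neurons, among them Prox1, Fibcd1, Wfs1 and Neurod6. All 10 had a higher mean signal in hippocampus than in the cortex and the cerebellum of the same animals, with means at percentiles 32.7 to 97.6 of all probe sets, although each tissue had been normalized separately.

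The trisomic effect in hippocampus was small and concentrated on MMU16. Of 21225 probe sets, 2185 (10.3%) had an unadjusted P under 0.05 and 67 (0.316%) were differentially expressed (DEX) at a false discovery rate (FDR, the Benjamini-Hochberg adjusted P value of limma's moderated test) below 10%, with 53 (0.25%) upregulated and 14 (0.066%) downregulated in trisomic animals. Of these, 39 lay in the triplicated MMU16 stretch, 4 were MMU12 genes of the monosomic end and 24 lay elsewhere. Without the repeated array of animal Eup324, 61 were DEX, and 34 of the 39, 4 of the 4 and 18 of the 24 calls were kept. A looser set of marginally dysregulated genes (MDGs), defined by an unadjusted P under 0.05 with a fold change above 1.2 or below 0.8, held 245 probe sets (1.15%), of which 174 (0.82%) were higher and 71 (0.335%) lower. The median change over all probe sets was −0.01, and 46.5% were higher in trisomic animals.

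Genes of the triplicated stretch were upregulated together. The stretch runs from Scaf4 to Zbtb21 (chromosome 16, 90228950 to 97962627 in GRCm38.p6), and all of its 73 probe sets were tested with no filter on low signal. Of these, 39 were DEX and upregulated, against 0.25% of all probe sets, and none were downregulated at this FDR or at an unadjusted P under 0.05. A change above 0 was seen in 63 of the 73, and 50 had an unadjusted P under 0.05 in that direction, against 4.19% of all probe sets. In 43 of the 73 every trisomic animal lay above every euploid one, against 1.24% of all probe sets. The median change over the 73 was 0.33, where a copy ratio of 1.5 corresponds to 0.58. Among the 39 DEX genes the fold change ran between 1.23 and 1.56 with a median of 1.38, and 2 of them, Ifnar2 and Morc3, reached 1.5. Of the 39 calls, 34 were kept whichever animal was left out, 28 under the methods' t-test and 29 with the 3 adult regions of each animal in 1 fit. Zbtb21, Scaf4, Psmg1, Bace2 and Donson were kept in only 1 to 4 of the 10 such omissions.

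**Figure D1:**
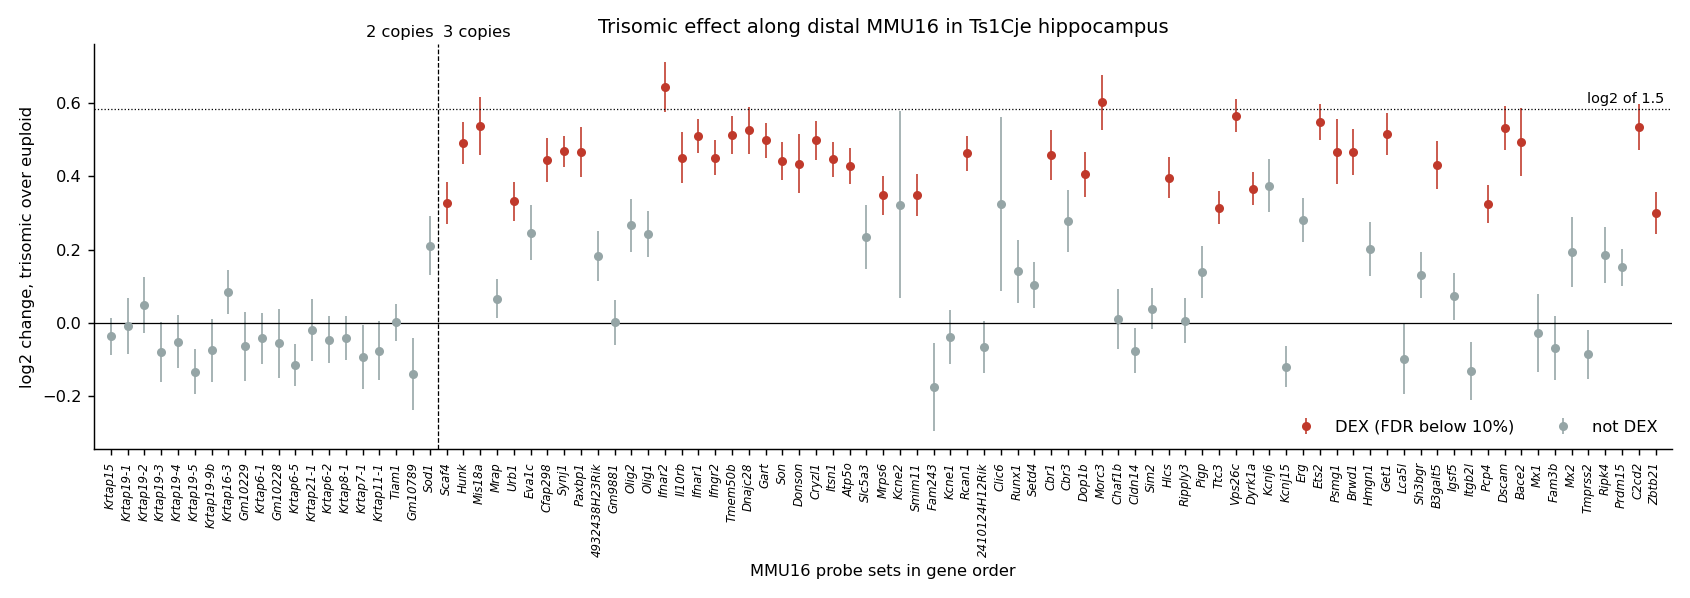
Log2 change (trisomic over euploid, with its standard error) of MMU16 probe sets in gene order, for the last 20 genes before the stretch, up to Sod1, and the 73 of the stretch. DEX genes are red, and the dotted line marks the log2 of 1.5. Changes before the dashed line lie within −0.20 and 0.21, with Sod1 at 0.21. Sod1 is placed before the line because its extra copy is not functional.

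Genes of the stretch are described below by role, in small groups that were not tested as groups. Their DEX counts stand beside 53.4% of the stretch as a whole. The 4 receptor subunits for interferons and related cytokines were all DEX, with a median change of 0.48. Ifnar2, a subunit of the type I interferon receptor, had the highest change of the stretch. Its log2 signals were 8.89, 8.78, 8.71, 8.60 and 8.77 in trisomic animals TS320, TS323, TS348, TS349 and TS366, against 7.95, 8.22, 8.23, 8.07 and 8.07 in euploid animals Eup324, Eup347, Eup350, Eup365 and Eup371. The groups did not overlap, and the change was 0.64 ± 0.07 (SE, n = 5 and 5, limma FDR = 0.00198). Ifnar1, the other subunit of that receptor, lay at 9.09 to 9.21 in trisomic and at 8.60 to 8.76 in euploid animals (0.51 ± 0.05, FDR = 0.00094). Ifngr2, part of the receptor for type II interferon, differed by 0.45 ± 0.05 (FDR = 0.00197), and Il10rb, a subunit shared by receptors of the interleukin 10 family, by 0.45 ± 0.07 (FDR = 0.0213). The antiviral GTPases Mx1 and Mx2 lie in the same stretch and are known targets of these receptors. Their changes were −0.03 ± 0.11 and 0.19 ± 0.10, neither DEX, at mean signals of 3.22 and 3.93 in trisomic animals, near the bottom of the signal range.

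Genes of synaptic vesicle and endosome traffic were DEX in 3 of 3 cases. Synj1, the phosphatase that strips clathrin coats from recycled vesicles, read 11.56, 11.57, 11.58, 11.63 and 11.56 in trisomic animals and 11.11, 11.06, 11.09, 11.14 and 11.16 in euploid animals (0.47 ± 0.04, FDR = 0.000807). The spread within either group was small beside the gap. Vps26c, an endosomal retrieval subunit, lay at 8.29 to 8.40 in trisomic and 7.75 to 7.85 in euploid animals (0.57 ± 0.05, FDR = 0.00042). The endocytic scaffold Itsn1 differed by 0.45 ± 0.05 (FDR = 0.00212).

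Among 4 kinases and phosphatase regulators, 3 were DEX. Rcan1, which binds and inhibits calcineurin, lay at 9.02 to 9.14 in trisomic and 8.53 to 8.67 in euploid animals (0.46 ± 0.05, FDR = 0.00186). Dyrk1a, a kinase studied for its dosage in neurons, read 10.59, 10.53, 10.55, 10.62 and 10.54 in trisomic animals, against 10.14, 10.19, 10.28, 10.17 and 10.20 in euploid animals (0.37 ± 0.04, FDR = 0.00405). The kinase Hunk changed by 0.49 ± 0.06 (FDR = 0.00314). The remaining member, Ripk4, had a mean signal of 4.54 in trisomic animals and a change of 0.19 ± 0.08 (FDR = 0.764).

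All members of 4 housekeeping groups of the stretch were DEX. They made up 5 of 5 in the list for RNA processing and ribosome biogenesis, 2 of 2 in purine synthesis and DNA replication, 2 of 2 mitochondrial proteins and 3 of 3 in protein folding and degradation. The first of these lists also counted Cryzl1, which is not known for that role. Examples were Gart, a multifunctional enzyme of purine synthesis (0.50 ± 0.05), Son, a splicing cofactor (0.44 ± 0.05), Atp5o, a subunit of ATP synthase (0.43 ± 0.05), and Psmg1, a proteasome assembly chaperone (0.47 ± 0.09). Of 7 genes for chromatin and the centromere, 4 were DEX. Morc3, a nuclear ATPase, lay at 7.85 to 8.17 in trisomic and 7.20 to 7.53 in euploid animals (0.60 ± 0.07, FDR = 0.00433), and Mis18a, which helps to load centromeric histone, changed by 0.54 ± 0.08. The bromodomain gene Brwd1 changed by 0.47 ± 0.06 and Hlcs by 0.40 ± 0.06. Hmgn1, a nucleosome binding protein, was not DEX (0.20 ± 0.07, FDR = 0.706): trisomic animals lay at 8.12 to 8.35, and 4 euploid animals at 7.94 to 8.04, while euploid animal Eup365 read 8.33.

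Transcription factors and channels of the stretch held 2 DEX genes. Of 8 transcription factors 2 were DEX, Ets2 (0.55 ± 0.05, FDR = 0.000807) and Zbtb21 (0.30 ± 0.06, FDR = 0.0938), although all 8 had a change above 0. Olig1 and Olig2, which direct the oligodendrocyte lineage, changed by 0.24 ± 0.06 (FDR = 0.392) and 0.27 ± 0.07 (FDR = 0.459), and their groups overlapped. Erg changed by 0.28 ± 0.06 (FDR = 0.163). None of the 5 ion channel genes was DEX. Clic6 (0.32 ± 0.24) and Kcne2 (0.32 ± 0.26) varied widely, with SDs of 0.54 and 0.62 in trisomic and 0.37 and 0.35 in euploid animals. Kcnj6, a subunit of G protein gated potassium channels, lay just outside the threshold: trisomic animals read 8.09, 8.03, 8.12, 8.20 and 8.09, and euploid animals 7.47, 7.71, 7.89, 7.76 and 7.82 (0.38 ± 0.07, FDR = 0.101). Those groups did not overlap.

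Of 15 genes for adhesion and other membrane proteins, 6 were DEX. Dscam, which controls self-avoidance of neurites, lay at 9.54 to 9.78 in trisomic and 8.97 to 9.18 in euploid animals (0.53 ± 0.06, FDR = 0.00276). Get1, which inserts tail-anchored proteins into the endoplasmic reticulum membrane, and Tmem50b changed by 0.52 ± 0.06 and 0.51 ± 0.05. Bace2, a protease related to the beta-secretase, changed by 0.49 ± 0.09 (FDR = 0.0843). Claudin Cldn14 (−0.08 ± 0.06) and the protease Tmprss2 (−0.09 ± 0.07) were not higher in trisomic animals, at mean signals of 6.18 and 4.79 there. Pcp4, a small calmodulin regulator of pyramidal and Purkinje neurons, changed by 0.32 ± 0.05 (FDR = 0.0316), and Ttc3, a ubiquitin ligase, by 0.32 ± 0.05 (FDR = 0.0129). The carbonyl reductase Cbr1 was DEX (0.46 ± 0.07) and its neighbor Cbr3 was not (0.28 ± 0.08, FDR = 0.572).

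Which members were DEX went with signal. Ordered by mean signal, the brightest 25 held 23 DEX genes with a median fold change of 1.37, the middle 23 held 15 with 1.32, and the dimmest 25 (mean signals of 3.24 to 6.22) held 1, Bace2, with a median fold change of 1.01. All 10 members with a change below 0 were in the dimmest group. Among the 34 members that were not DEX the median change was 0.12. How far the low end of the signal range compresses differences, and whether those genes are transcribed in hippocampus, was not tested.

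In the other tables compared, the same stretch had medians of 0.26 to 0.36. Its median change was 0.29 in Ts1Cje cortex and 0.36 in Ts1Cje cerebellum (the same animals), 0.26 in Ts1Cje embryonic forebrain, 0.29 in Dp16 hippocampus and 0.34 in Ts65Dn hippocampus, against 0.33 in Ts1Cje hippocampus. The number of its genes that were DEX was 4 in cortex (0.0424% of all probe sets there), 33 in cerebellum (0.429%), 36 in forebrain (0.259%), 3 in Dp16 hippocampus (0.066%) and 14 in Ts65Dn hippocampus (0.132%). In limma tests of the difference between effects, none of the 73 genes was called for hippocampus against cortex (median difference 0.01), against cerebellum (−0.03) or against Dp16 hippocampus (0.06). The difference was above 0 for 56 of the 73 against Dp16 hippocampus, where 10582 of 21225 probe sets were. Against cortex it was above 0 for 40 (11222 of all), and against cerebellum for 29 (10935 of all). At an unadjusted P under 0.05, 1 was higher and 3 lower against cortex (1.24% and 1.74% of all probe sets), 2 and 3 against cerebellum (2.91% and 2.61%), and 3 and 0 against Dp16 hippocampus (2.05% and 2.03%).

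Genes just proximal to the stretch, which are present in 2 functional copies in Ts1Cje mice, were not upregulated as a block. Of 68 probe sets from Lipi to Sod1 none was DEX, 3 were higher and 3 lower at an unadjusted P under 0.05 (4.19% and 6.11% of all probe sets), and the median change was −0.03. App, the amyloid precursor, lay at 12.45 to 12.54 in trisomic and 12.44 to 12.54 in euploid animals (0.01 ± 0.04). Sod1, the cytosolic superoxide dismutase, lay at 10.73 to 10.86 in trisomic animals and at 10.44 to 10.54 in 4 euploid animals, with euploid animal Eup324 at 10.90 (0.21 ± 0.08, FDR = 0.733). The chaperone Hspa13 changed by 0.05 ± 0.07.

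At the end of MMU12, Dnah11 was strongly upregulated and 3 of the other 6 monosomic genes were downregulated. Dnah11, which encodes an axonemal dynein heavy chain of motile cilia, read 9.13, 9.08, 8.97, 9.09 and 9.17 in trisomic animals, against 5.37, 5.77, 5.83, 5.66 and 5.46 in euploid animals. This 11.1-fold difference (3.47 ± 0.08, FDR = 9.27e-10) was the highest change of all probe sets. The paper describes the rise of Dnah11 as a breakpoint artifact of the Ts1Cje translocation, with truncation of the gene as the likely reason. That was not tested here. Itgb8, the beta subunit of an integrin that activates TGF-beta, read 8.59, 8.69, 8.54, 8.41 and 8.45 in trisomic animals and 9.45, 9.38, 9.18, 9.34 and 9.39 in euploid animals (−0.81 ± 0.07, FDR = 0.000485). Both groups were tight and well apart, and this was the lowest change of all probe sets.

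Tmem196, a membrane protein gene, lay at 7.08 to 7.24 in trisomic and 7.72 to 7.99 in euploid animals (−0.61 ± 0.06, FDR = 0.00169). Sp4, a zinc finger transcription factor of neurons, lay at 6.74 to 6.96 in trisomic and 7.23 to 7.36 in euploid animals (−0.48 ± 0.05, FDR = 0.0028). These fold changes were 0.571 for Itgb8, 0.654 for Tmem196 and 0.718 for Sp4, and all 4 calls of MMU12 held in every alternative run. Sp8 (−0.25 ± 0.09, FDR = 0.683) and Macc1 (−0.23 ± 0.05, FDR = 0.284) were not DEX, although the groups of Macc1 did not overlap (0.881% of all probe sets were lower in this way), and Abcb5 changed by −0.05 ± 0.04. These 3 had mean signals of 4.67, 3.52 and 3.69 in trisomic animals. Of the 6 neighboring genes on the centromeric side, from Ncapg2 to Cdca7l, none reached an unadjusted P of 0.05.

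**Figure D2:**
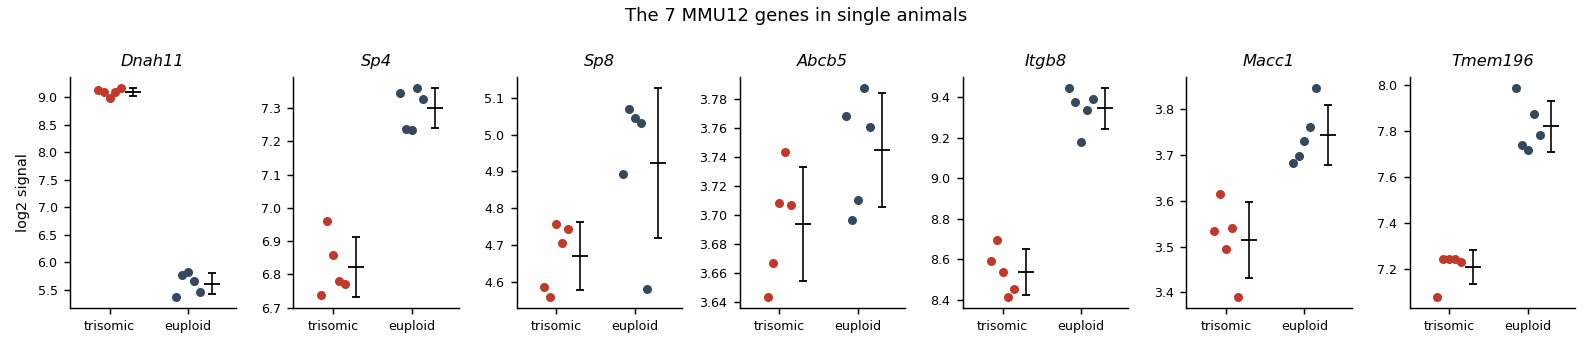
Log2 signals of the 7 MMU12 genes in single animals (points) with the mean and SD beside them, trisomic left and euploid right; each panel has its own axis. Dnah11 lies about 9 in trisomic and 5.6 in euploid animals, and Itgb8, Tmem196 and Sp4 lie lower in all 5 trisomic animals.

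The MMU12 changes set Ts1Cje apart from Dp16 mice, which carry the MMU16 stretch without the MMU12 deletion. The only 4 genes called in the test of Ts1Cje minus Dp16 hippocampus (1 higher, 0.00471%, and 3 lower, 0.0141%) were Dnah11 (3.51 ± 0.14, FDR = 4.28e-12), Itgb8 (−0.81 ± 0.08, FDR = 0.000101), Tmem196 (−0.66 ± 0.08, FDR = 0.00165) and Sp4 (−0.52 ± 0.08, FDR = 0.0358). In Dp16 hippocampus itself these genes changed by −0.03, 0.00, 0.05 and 0.04. At an unadjusted P under 0.05 the same test had 436 probe sets higher and 431 lower.

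Elsewhere in the genome 24 of 21145 probe sets were DEX (0.114%), 13 upregulated and 11 downregulated. Large upward changes included those of Etnppl, G530011O06Rik and Rida. Etnppl, a phosphoethanolamine lyase known from astrocytes, read 8.11, 8.26, 8.56, 8.42 and 8.26 in trisomic animals, against 7.61, 7.31, 7.43, 7.71 and 7.20 in euploid animals (0.87 ± 0.10, FDR = 0.0036). The groups did not overlap. Those of G530011O06Rik, a noncoding RNA gene of the X chromosome, met in 1 pair of animals: 7.62 to 8.42 in trisomic and 6.96 to 7.63 in euploid animals (0.77 ± 0.14, FDR = 0.0758).

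Rida, a deaminase that clears reactive imine intermediates, read 9.55, 9.59, 9.49, 9.28 and 9.50 in trisomic animals and 8.99, 8.86, 8.70, 8.78 and 8.94 in euploid animals (0.63 ± 0.07, FDR = 0.0028). Acad11, an acyl-CoA dehydrogenase of fatty acid oxidation, differed less (8.25 to 8.34 against 7.98 to 8.12 in euploid animals, 0.25 ± 0.04, FDR = 0.0597). Both genes were higher in each trisomic animal than in any euploid one. Of 19 astrocyte markers, 12 were higher (46.5% of all probe sets were), with a median of 0.03.

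Several DEX genes mark particular cells. Ly6c1, a surface antigen that in brain marks endothelium, lay at 9.56 to 9.76 in trisomic and 9.09 to 9.29 in euploid animals (0.50 ± 0.06, FDR = 0.00276). Htr3a, the ionotropic serotonin receptor of a class of interneurons, lay at 7.74 to 8.07 in trisomic and 7.23 to 7.65 in euploid animals (0.46 ± 0.08, FDR = 0.0564). Mal, a proteolipid of compact myelin, differed by 0.30 ± 0.05 (FDR = 0.0203). Enpp6, which is switched on in newly forming oligodendrocytes, went the other way, at 6.44 to 6.59 in trisomic and 6.74 to 7.15 in euploid animals (−0.41 ± 0.07, FDR = 0.0345).

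Mfge8, a secreted bridge protein for the engulfment of dying cells, had the lowest change of the DEX genes outside both segments. It read 9.47, 9.49, 9.40, 9.61 and 9.60 in trisomic animals, against 9.80, 10.04, 10.13, 9.90 and 9.90 in euploid animals (−0.44 ± 0.07, FDR = 0.0212). Tbx1, a T-box factor that lies on MMU16 proximal to the stretch, changed by −0.44 ± 0.06 (FDR = 0.0134), and the orphan receptor Gpr153 by −0.33 ± 0.05 (FDR = 0.0282). Cyp11a1, which starts steroid synthesis from cholesterol, changed by −0.37 ± 0.06 (FDR = 0.05), and the small nucleolar RNA Snord34 by −0.43 ± 0.08 (FDR = 0.0843) with overlapping groups. The other downregulated ones were Pram1, Sectm1b, Traj44, Lrrc43 and 1 probe set that matched no RefSeq gene. The other upregulated ones included G530011O06Rik, Pate2, Clrn1, Dazl, Rsad2 and Mir136.

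**Figure D3:**
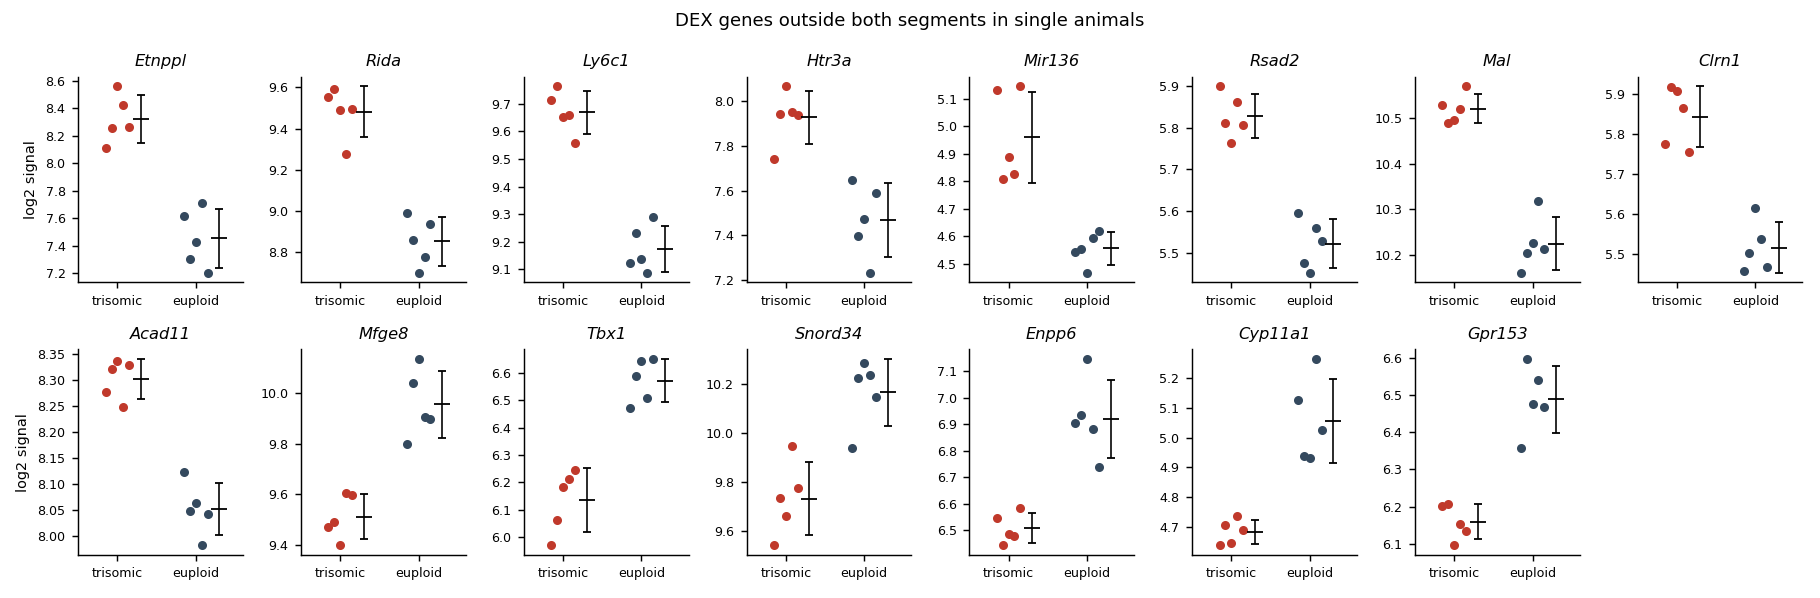
Log2 signals of 15 of the 24 DEX genes outside both segments in single animals (points) with the mean and SD, trisomic left and euploid right; each panel has its own axis. The first 9 panels are upregulated genes, from Etnppl to Acad11, and the last 6 downregulated ones, and in all but Snord34 the groups do not overlap.

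Of the 24 calls elsewhere, 14 stayed DEX whichever animal was left out, 13 under the methods' t-test and 11 with the 3 adult regions in 1 fit. The 6 that held in every alternative run that measured them included Rida, Ly6c1, Etnppl, Clrn1 and Pate2. Runs on brighter probe sets left out dim genes, so Clrn1 was in 22 and Pate2 in 21 of 23 runs. Traj44, Acad11, Cyp11a1, Htr3a, Snord34, Lrrc43, Mir136, Sectm1b and G530011O06Rik were each DEX in only 1 to 4 of the 10 fits that left out an animal, and Enpp6 was not DEX without trisomic animal TS323.

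The 24 genes had been chosen in Ts1Cje hippocampus only, so other tables give them a separate reading. In Dp16 hippocampus, which came from other animals, 23 of the 24 had the same direction (64.6% of all probe sets outside both segments did), 10 had an unadjusted P under 0.05 (10.1% of all probe sets) and 1, Enpp6, was DEX (−0.43, FDR = 0.0458). Rida changed there by 0.53, Clrn1 by 0.35, Rsad2 by 0.24 and Tbx1 by −0.42. In Ts65Dn hippocampus 14 of the 24 had the same direction (50.1%) and 3 an unadjusted P under 0.05 (4.69%), among them Mal (0.46) and Mfge8 (−0.37). In the embryonic Ts1Cje forebrain the numbers were 18 (59.2%) and 4 (4.39%).

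In other regions of the same Ts1Cje animals, 19 of the 24 had the same direction in cortex (53.1% of all) and 22 in cerebellum (62.2%), with 12 (2.88% of all probe sets) and 10 (9.06%) at an unadjusted P under 0.05. Etnppl changed by 0.64 in cortex and 0.60 in cerebellum, Mfge8 by −0.63 and −0.46, and both were DEX in both regions. Htr3a changed by 0.01 in cortex and 0.11 in cerebellum, and Pate2 by 0.14 and −0.06. None of the 24 was called in the tests of the difference between regions.

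Genes induced by interferons outside the segments changed by small amounts, with more members higher than lower in trisomic animals. Of 56 measured members of the list, 41 were higher in trisomic animals, against 46.5% of all probe sets. The median change of the list was 0.05, beside −0.01 for all probe sets. At an unadjusted P under 0.05, 7 were higher and 0 lower (4.19% and 6.11% of all probe sets), and 1 was DEX. That gene, Rsad2, which encodes the antiviral enzyme viperin, read 5.90, 5.81, 5.76, 5.86 and 5.81 in trisomic animals and 5.60, 5.48, 5.45, 5.56 and 5.53 in euploid animals (0.31 ± 0.05, FDR = 0.0239). The groups did not overlap. The cytosolic RNA sensor Ifih1 changed by 0.17 ± 0.05 (FDR = 0.506) and the guanylate binding protein Gbp5 by 0.25 ± 0.08 (FDR = 0.63). Ifit1 changed by −0.02 ± 0.11 and the RNA-activated kinase Eif2ak2 by 0.11 ± 0.07.

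In the cerebellum of the same animals the list stood higher, with a median of 0.47 and 43 members higher at an unadjusted P under 0.05 (9.06% of all probe sets there in either direction). In the test of hippocampus minus cerebellum, 34 of the 56 were lower in hippocampus at an unadjusted P under 0.05 (2.61% of all probe sets), the median difference was −0.36 and 3 were called, among them Ifit1 (−1.32 ± 0.19, FDR = 0.062) and Eif2ak2 (−0.66 ± 0.10, FDR = 0.0879). In cerebellum Ifit1 lay at 6.63 to 7.75 in trisomic and 5.40 to 6.19 in euploid animals, whereas in hippocampus it lay at 5.23 to 5.65 in trisomic and 5.19 to 5.75 in euploid animals. For the receptors the difference was below its standard error, at −0.04 ± 0.07 for Ifnar1 and −0.03 ± 0.12 for Ifnar2. In cortex, 2 of the 56 were lower and 0 higher at that P in the same kind of test (1.74% and 1.24% of all probe sets). In Dp16 hippocampus the list median was 0.13, and its difference to Ts1Cje was −0.07 with no member at an unadjusted P under 0.05.

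Promoters of 3 of these genes are shown because Rsad2 was DEX in hippocampus while Ifit1 and Eif2ak2 differed between the regions. They run from 250 bases before to 50 after the start of the gene in the RefSeq annotation of GRCm38.p6, and capitals mark the interferon-stimulated response element, searched on both strands as GAAA, any 2 bases and GAAA again (TTTC, 2 bases and TTTC when read on the other strand). Rsad2 lies on the minus strand at chr12:26456403-26456702, Ifit1 on the plus strand at chr19:34640639-34640938 and Eif2ak2 on the minus strand at chr17:78882523-78882822.
Rsad2 promoter: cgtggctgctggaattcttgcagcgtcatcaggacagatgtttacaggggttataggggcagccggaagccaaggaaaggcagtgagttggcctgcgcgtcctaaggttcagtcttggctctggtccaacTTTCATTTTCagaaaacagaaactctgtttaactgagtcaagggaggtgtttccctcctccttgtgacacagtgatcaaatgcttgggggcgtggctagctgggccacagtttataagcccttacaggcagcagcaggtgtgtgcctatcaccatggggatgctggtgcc
Ifit1 promoter: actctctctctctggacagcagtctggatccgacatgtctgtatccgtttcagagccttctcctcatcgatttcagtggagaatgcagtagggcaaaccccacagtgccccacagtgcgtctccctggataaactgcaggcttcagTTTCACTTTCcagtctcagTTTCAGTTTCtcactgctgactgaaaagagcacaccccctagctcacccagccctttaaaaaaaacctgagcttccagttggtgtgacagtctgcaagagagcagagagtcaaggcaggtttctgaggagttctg
Eif2ak2 promoter: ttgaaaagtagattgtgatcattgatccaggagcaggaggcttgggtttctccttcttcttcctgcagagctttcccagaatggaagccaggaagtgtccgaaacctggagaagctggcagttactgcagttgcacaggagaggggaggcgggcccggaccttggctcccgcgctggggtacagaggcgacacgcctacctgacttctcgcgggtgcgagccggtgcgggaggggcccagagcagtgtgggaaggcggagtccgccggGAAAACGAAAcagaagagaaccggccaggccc
The element lies 120 bases before the start in Rsad2, 104 and 85 bases before it in Ifit1 and 18 bases after it in Eif2ak2. Of all 32851 promoters 1131 (3.44%) hold it. It was found in 21 of the 42 promoters available for the interferon list, in 0 of 58 of the stretch and in 1 of 17 of the DEX genes elsewhere (5.88%), which is Rsad2. A match of letters is no measure of binding.

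Few probe sets were called in the tests between regions. For hippocampus minus cerebellum, Dnah11 was called upward (1.43 ± 0.13, FDR = 0.00105, 0.00471% of all), and its change was 2.04 in cerebellum, where euploid animals lay at 6.93 to 7.34. The 5 called downward (0.0236%) included Ifit1, Eif2ak2, Rnf213 (−0.62 ± 0.09) and the prokineticin receptor Prokr2 (−1.34 ± 0.19, FDR = 0.062). Prokr2 lay at 6.20 to 6.68 in trisomic and 6.32 to 6.59 in euploid hippocampus, and at 6.26 to 7.03 in trisomic and 5.04 to 5.45 in euploid cerebellum. The number of downward calls changed when single animals were left out. None was left without trisomic animal TS366 or without euploid animal Eup347, Eup350, Eup365 or Eup371. There was 1 without TS320 or TS323, 2 without TS349, and 10 without trisomic animal TS348. For hippocampus minus cortex limma called none, with 1.24% of probe sets higher and 1.74% lower at an unadjusted P under 0.05.

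**Figure D4:**
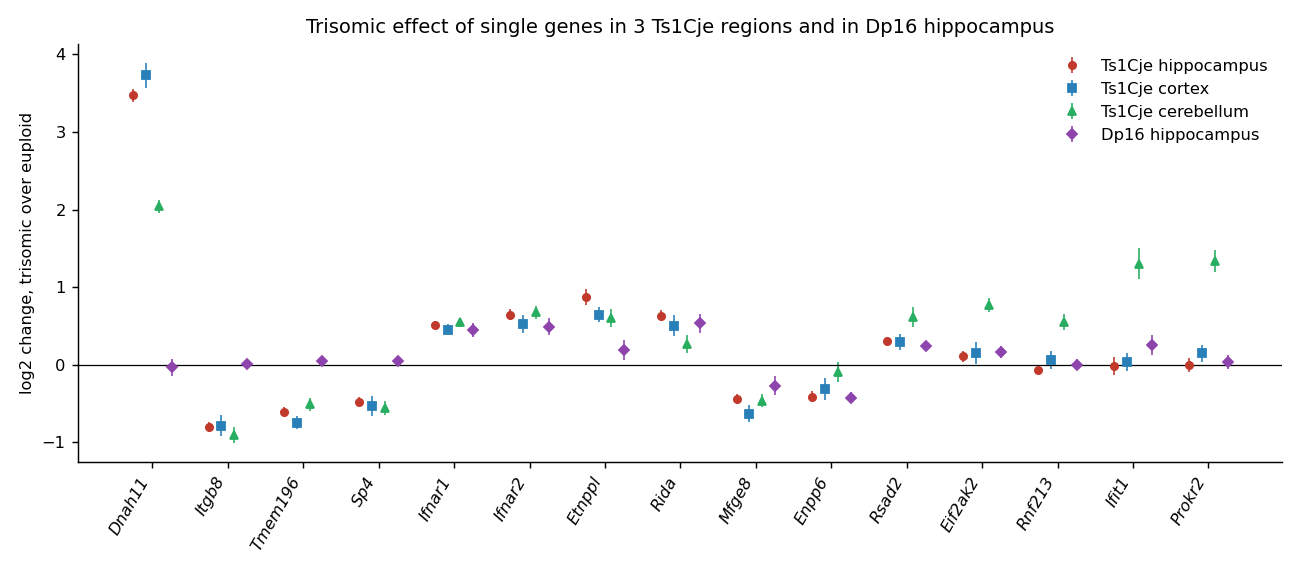
Log2 change (trisomic over euploid) with its standard error for 15 genes in hippocampus, cortex and cerebellum of Ts1Cje animals and in hippocampus of Dp16 animals. The MMU12 genes lie away from 0 in the Ts1Cje tissues and within 0.05 of it in Dp16 hippocampus, Ifnar1 lies at 0.44 to 0.55 throughout, and Eif2ak2, Rnf213, Ifit1 and Prokr2 are raised in Ts1Cje cerebellum.

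Of 307 probe sets for miRNA genes, 6 were MDGs, 4 upward (Mir136, Mir653, Mir434, Mir34a) and 2 downward (Mir181a-2, Mir26a-2), and 1 was DEX. These were 1.95% MDGs and 0.326% DEX genes, against 1.15% and 0.316% of all probe sets. These probe sets lie in the miRNA genes, and whether they read the precursor or the mature form was not tested. Mir136 read 5.13, 4.81, 4.89, 4.83 and 5.14 in trisomic animals, against 4.54, 4.56, 4.47, 4.59 and 4.62 in euploid animals (0.40 ± 0.07, FDR = 0.0698), with no overlap. The other 5 had overlapping groups and an FDR of 0.55 or more, for example Mir653 (0.31 ± 0.09, FDR = 0.55), Mir434 (0.31 ± 0.11, FDR = 0.688) and Mir26a-2 (−0.48 ± 0.20, FDR = 0.757). Mature sequences of the DEX gene Mir136, its neighbor Mir434 and the 2 downward MDGs follow, from RefSeq on GRCm38.p6 and written 5′ to 3′, with the seed (bases 2 to 8) in capitals.
mmu-miR-136-5p: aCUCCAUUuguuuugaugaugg
mmu-miR-136-3p: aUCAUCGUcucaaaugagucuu
mmu-miR-434-5p: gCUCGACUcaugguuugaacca
mmu-miR-434-3p: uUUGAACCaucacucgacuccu
mmu-miR-181a-5p: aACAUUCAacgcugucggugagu
mmu-miR-26a-5p: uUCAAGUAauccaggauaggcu
The hairpins of Mir136 and Mir434 lie close together (chr12:109595327-109595388 and chr12:109594506-109594599, plus strand) in the imprinted Dlk1-Dio3 miRNA cluster, far from the monosomic end of MMU12. None of the printed seeds was shared between Mir136, Mir434, Mir181a-2 and Mir26a-2. Seeds of miRNA genes outside the MDGs were not compared. Of the cluster as a whole, 20 of 40 miRNA probe sets were higher, 2 were higher and 1 lower at an unadjusted P under 0.05 (4.19% and 6.11% of all probe sets), and the median change was 0.00.

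Pathway lists outside the segments held no DEX gene apart from Rsad2, and their medians lay between −0.03 and 0.05. Genes of the oxidative stress response were higher in 32 of 40 cases, against 46.5% of all probe sets (median 0.05), and 6 were higher and 0 lower at an unadjusted P under 0.05, against 4.19% and 6.11% of all probe sets, among them the peroxiredoxin Prdx4 (0.20 ± 0.06, FDR = 0.52) and the metallothioneins Mt1 (0.14 ± 0.05) and Mt2 (0.23 ± 0.08). Of 21 glutathione transferases 13 were higher, and the microsomal Mgst1 was an MDG (0.41 ± 0.10, FDR = 0.33). Synaptic vesicle genes outside the stretch were higher in 30 of 39 cases (median 0.04), with Vamp1 highest in significance (0.23 ± 0.05, FDR = 0.152). JAK-STAT genes were higher in 25 of 34 (median 0.03).

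FGF signaling had 7 members lower and 1 higher at an unadjusted P under 0.05 among 37 (median −0.02), where 6.11% and 4.19% of all probe sets were. Fgf17 changed by −0.19 ± 0.06 and the receptor Fgfr4 by −0.16 ± 0.05, while Fgf1 changed by 0.17 ± 0.05. In the calcineurin and NFAT list, Rcan2, a relative of the triplicated Rcan1, changed by 0.25 ± 0.06 (FDR = 0.274, no overlap) and Nfat5 by −0.13 ± 0.06. Glutamate receptors (8 of 25 higher, median −0.03), GABA receptors (10 of 19, 0.00), postsynaptic density genes (9 of 28, −0.01), netrin signaling (12 of 25, 0.00) and the respiratory chain (31 of 66, 0.00) had at most 1 member at an unadjusted P under 0.05 in either direction. Rfx5, a regulator of MHC class II genes, changed by −0.29 ± 0.06 (FDR = 0.213), and 7 of 12 members of its list were higher.

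**Figure D5:**
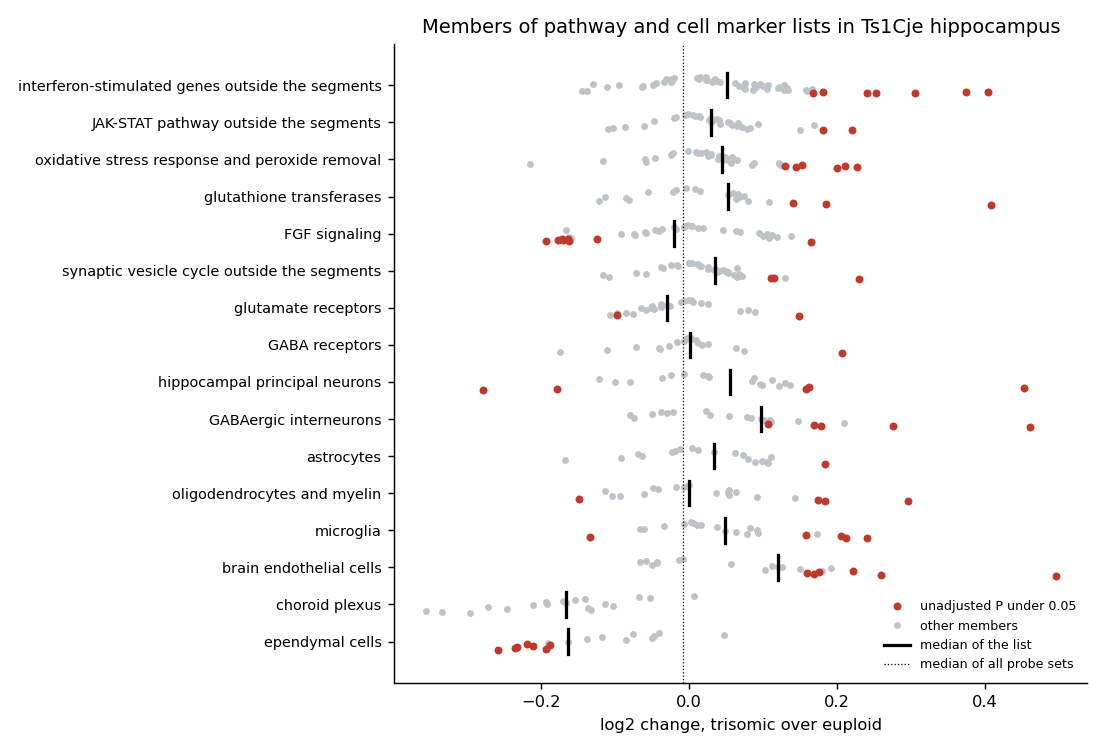
Log2 change (trisomic over euploid) of each member of pathway and cell marker lists in hippocampus, with members at an unadjusted P under 0.05 in red, list medians as black bars and the median of all probe sets dotted. Most medians lie near 0, and those of choroid plexus and ependymal markers lie at −0.17 and −0.16.

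Of the marker lists, those of endothelium and interneurons had medians of 0.12 and 0.10, and those of choroid plexus and ependyma −0.17 and −0.16, beside −0.01 for all probe sets. No list was tested as a group. Endothelial markers had 6 of 21 members higher and 0 lower at an unadjusted P under 0.05, against 4.19% and 6.11% of all probe sets, and the other 15 did not pass. Besides Ly6c1 these were led by Mfsd2a, the lipid transporter of the blood-brain barrier, at 8.69 to 9.08 in trisomic and 8.48 to 8.66 in euploid animals (0.26 ± 0.07, FDR = 0.486), Pecam1 (0.17 ± 0.05) and the glucose transporter Slc2a1 (0.16 ± 0.06). Interneuron markers had 5 of 23 higher and 0 lower at that P, against the same shares, led after Htr3a by the factor Lhx6 (0.18 ± 0.05, FDR = 0.421), Tac1 (0.28 ± 0.11) and Npy (0.17 ± 0.07).

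Ependymal markers were lower in 16 of 17 cases (53.5% of all probe sets were) and 7 of them at an unadjusted P under 0.05 (6.11%), among them Ccdc153 (−0.26 ± 0.08, FDR = 0.544). Their mean signal was 6.06, 5.91, 5.84, 5.78 and 5.90 in trisomic animals, against 5.85, 6.23, 6.19, 6.01 and 5.92 in euploid animals, so the groups overlapped. Choroid plexus markers were lower in 18 of 19, none at an unadjusted P under 0.05, and their mean spread widely within both groups: 8.80, 8.49, 8.29, 7.73 and 7.88 in trisomic animals and 7.83, 8.89, 8.71, 8.40 and 8.24 in euploid animals. With an animal left out, the median of the choroid plexus list ran from −0.33 (without TS320) to −0.04 (without TS349) and that of the ependymal list from −0.22 (without Eup324) to −0.09 (without Eup350). The defining choroid plexus gene Ttr was among the brightest of the array, at 12.77 to 13.47 in trisomic and 12.95 to 13.46 in euploid animals. How much such tissue each dissection held, and its part in other results, was not tested.

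Markers of hippocampal principal neurons (14 of 22 higher, 3 higher and 2 lower at an unadjusted P under 0.05), oligodendrocytes (11 of 21, 3 and 1), astrocytes (12 of 19, 1 and 0) and microglia (16 of 21, 4 and 1) had medians of 0.00 to 0.06. Of all probe sets, 46.5% were higher, and 4.19% were higher and 6.11% lower at that P. Tdo2, a marker of dentate granule cells, varied from 5.17 to 6.07 in trisomic and 4.80 to 5.61 in euploid animals (0.45 ± 0.18, FDR = 0.74), and Lct, on the same list, changed by −0.28 ± 0.08 (FDR = 0.55). Itgam, an integrin of microglia, changed by 0.21 ± 0.06 (FDR = 0.47) with no overlap. Markers of neighboring regions were level in the middle (medians of −0.04 for thalamus, −0.03 for striatum and 0.01 for neocortex). Zic1, which marks thalamus and cerebellum, had the widest spread: 7.38 to 8.0 in trisomic animals, and 7.36 to 8.97 in euploid animals, of which Eup347, Eup350 and Eup365 read 8.73 or more.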

How the data were processed

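Hippocampal RNA was hybridized to Affymetrix mouse whole-transcript arrays. The authors deposited log2 values from RMA (background correction, quantile normalization and probe summary), computed on a custom probe-set definition with 1 probe set per Entrez gene, separately for each model and tissue. No fold changes or P values of the authors were used, and 0 columns of samples were left over. Of 21225 probe sets, 20768 were named through RefSeq (GRCm38.p6) and 457 were unnamed.

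The 3 arrays of euploid animal Eup324 were averaged, and trisomic was compared with euploid with limma 3.58.1 (lmFit, eBayes) in R 4.3.3, 5 animals against 5 with no covariate. P values of 12 comparisons of the series (254700 values) were adjusted together with the Benjamini-Hochberg method, as were those of the 3 tests of a difference between effects. The tests between regions compared trisomic with euploid on the difference between regions within each animal, so that the animal was its own block. Only the alternative fit of the 3 adult regions together kept the animal as a random block (duplicateCorrelation, statmod 1.5.0). The difference between models was an interaction of model and genotype on separate animals. Scripts were tested on simulated data. Tables and figures came from Python 3.11.15 (pandas 2.3.3, numpy 2.4.6, matplotlib 3.10.9, scipy 1.17.1). The number of arrays limits the precision.

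Genes are named by a rule: the MMU12 genes, the 20 DEX genes of the stretch with the largest change and 16 further ones by name, every DEX gene outside both segments, the 8 MDGs of largest change in each direction above the median signal, miRNA genes among the MDGs, the 4 lowest P values of each list, and genes called in a difference test, less some genes that are not reported here. Other genes of the stretch are named to show its roles. The members, the 15 role lists, 20 pathway lists and 20 marker lists were chosen with earlier results of these data known. Alternatives covered the test, moderation, array weights, the repeats of animal Eup324, normalization, dim probe sets, thresholds, the adjustment, the block and each animal left out.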

Additional observations from a re-analysis of the deposited data

Results flagged for a closer look

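Tests of a difference between effects called several genes. For the trisomic effect in hippocampus minus cerebellum these included Dnah11 at 1.43, Ifit1 at −1.32, Prokr2 at −1.34, Rnf213 at −0.62 and Eif2ak2 at −0.66 on the log2 scale. For the effect in Ts1Cje minus Dp16 hippocampus they were Dnah11 at 3.51, Itgb8 at −0.81, Tmem196 at −0.66 and Sp4 at −0.52.

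A single animal lay far from the other 4 of its group in 10 of 302 groups tested. Chance puts about 1 in 20 groups (5%, here 15.1) in this class. Trisomic animals stood out for Tmem196 (TS320, 7.08), Sectm1b (TS349, 4.28) and Mobp (TS348, 10.55). Euploid animals stood out for Hmgn1 (Eup365, 8.33), Sod1 (Eup324, 10.90), Gabrr2 (Eup347, 5.69), Vamp1 (Eup324, 9.92), Pecam1 (Eup365, 6.94), Pifo (Eup347, 4.38) and Irx1 (Eup371, 5.06). Eup324, Eup347 and Eup365 accounted for 2 each.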

How the results depend on the processing

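No paired analysis was possible because trisomic and euploid animals share no replicate numbers. The 3 adult regions of each animal do pair, and in 1 fit of them with the animal as a random replicate block (correlation 0.0611) 49 genes were DEX (40 up, 9 down), of which 29 lay in the stretch, 4 on MMU12 and 16 elsewhere. With the regions of an animal left unpaired, the test of hippocampus minus cerebellum called 7 genes (3 up, 4 down) in place of 6. That of hippocampus minus cortex called 0.

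Leaving out each animal gave 58 to 71 DEX genes (46 to 56 up, 10 to 17 down; 34 to 38 in the stretch, 4 to 5 on MMU12, 19 to 30 elsewhere) and 242 to 316 MDGs (68 to 111 down, with 111 without Eup371). It gave 1 to 11 calls for hippocampus minus cerebellum (1 to 2 up, 0 to 10 down) and 4 to 5 for Ts1Cje minus Dp16. The 14 downregulated DEX genes became 8 under the methods' t-test, 6 with the repeated array of animal Eup324 alone, 7 above the median signal, 22 when adjusted within the comparison, 9 at an FDR of 5% and 27 at 20%. The 24 elsewhere became 45 when adjusted within the comparison, 15 at 5% and 55 at 20%. MDGs numbered 385 with the repeated array alone and 110 (18 down) above the median signal, and 43 were down above the 25th percentile of signal. Adjusted within its test, hippocampus minus cerebellum gave 17 calls (4 up, 13 down). The alternative without the repeated array was chosen after seeing the data.

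Above the 25th percentile of signal, the medians were 0.46 for stretch kinases, −0.55 for MMU12 genes and −0.0729 for striatum, and without the repeated array that of GABA receptors was −0.0215. With each animal left out, medians ran from 0.155 to 0.27 for adhesion and membrane genes of the stretch, −0.34 to −0.23 for MMU12, 0.0189 to 0.048 for JAK-STAT, −0.0421 to −0.0069 for FGF, −0.0245 to 0.0018 for GABA receptors, −0.045 to 0.029 for neurogenesis, 0.0015 to 0.0666 for astrocytes and −0.0661 to −0.0231 for striatum.

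Of 53 named DEX genes, 26 lost their call in some alternative and 0 turned. Of 98 others, 5 gained a call and 3 turned, all near 0. App was −0.0004 with the original array alone, −0.0006 with the Restained one, −0.0005 without the repeated one and −0.0001 to 0.024 with an animal left out. Ifit1 was 0.0659 with array weights, 0.0044 with the Restained array, 0.0315 requantiled and −0.0881 to 0.0527 with an animal left out. Prokr2 was 0.0171 with the repeated array, 0.0038 requantiled and −0.061 to 0.0583 with an animal left out. The causes were not tested, and dim probe sets limit what can be seen.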

Other observations

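Probe sets of small and noncoding RNA genes were more often lower than higher in trisomic hippocampus, a pattern noticed in the data and given with no test. Of 48 for small nucleolar RNAs, 42 were lower, with 1 higher and 12 lower at an unadjusted P under 0.05 and a median of −0.17. Of all probe sets 53.5% were lower, and 4.19% were higher and 6.11% lower at that P. Snord104, which guides rRNA modification, lay at 10.35 to 11.27 in trisomic and 10.96 to 11.78 in euploid animals (−0.39 ± 0.17, FDR = 0.785). Of 307 for miRNA genes 207 were lower (median −0.04, 7 higher and 23 lower), and of 535 for lncRNA genes 361 (median −0.04, 18 higher and 54 lower). Euploid animal Eup324 had the highest miRNA mean, 4.749, against 4.605 to 4.645 in the other euploid and 4.57 to 4.635 in trisomic animals. Its lncRNA mean was 5.343, against 5.215 to 5.273 and 5.21 to 5.259. How far that animal carried these shifts was not tested. The median for small nucleolar RNAs was −0.25 in Dp16 hippocampus, −0.16 in Ts65Dn hippocampus, −0.18 in Ts1Cje cortex and −0.03 in Ts1Cje cerebellum. It went the other way in Ts1Cje embryonic forebrain, at 0.02 with 32 of 48 higher (5 higher and 2 lower at an unadjusted P under 0.05). The miRNA median was 0.02 in cortex and the lncRNA median 0.03 in Ts65Dn hippocampus, and in the other tables these medians ran from −0.07 to 0.00.

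Markers of newborn neurons and stem cells were higher in 9 of 20 cases (median −0.01). At an unadjusted P under 0.05, 3 were higher and 1 lower (4.19% and 6.11% of all probe sets), and none was DEX. Hopx, of quiescent dentate stem cells, changed by 0.21 and Eomes, of intermediate progenitors, by −0.29, at unadjusted P values of 0.00269 and 0.0104 in limma. Ide, a protease that degrades insulin and amyloid beta, changed by 0.34 ± 0.14 (FDR = 0.753). Erythroid genes were higher in 5 of 6, led by Hbb-b1 (0.47 ± 0.20, FDR = 0.784). Ddo, which oxidizes D-aspartate, lay at 7.54 to 8.11 in trisomic and 7.30 to 7.51 in euploid animals (0.46 ± 0.09, FDR = 0.134).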
